A study of Mus musculus with 42 samples.

Results

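The regions described here were the SMARCA2/4 peaks of euploid mouse hippocampus that lay at proximal promoters, which the deposited annotation of the euploid list assigns by the label ProximalPromoter. They numbered 5643 of the 22667 peaks in that list (24.9%), and the centre of each lay within 250 bp of a transcript start. SMARCA2 and SMARCA4 are the alternative ATPase subunits of the BAF complex, and the chromatin immunoprecipitation (ChIP-seq) used an antibody that recognises both. The tissue was hippocampus of males 6 to 8 weeks old, with tissue of 2 animals in each replicate and 4 immunoprecipitated and 4 input libraries per genotype. The 3 genotypes came from crosses of Ts65Dn females with Brwd1+/- males on a mixed DBA/2J and B6EiC3Sn/J background. Euploid mice carried 2 copies of every autosome, Ts65Dn mice a further copy of distal chromosome 16 and proximal chromosome 17, and Ts65Dn;Brwd1+/- mice that same extra segment with 1 Brwd1 copy carrying the mutant allele. Brwd1 encodes a bromodomain protein whose gene lies in the extra segment. Open chromatin had been measured by ATAC-seq in sorted NeuN-positive nuclei of adult male hippocampus (3 libraries per genotype). The ATAC-seq labels give no age in weeks, and the paper states the same age for the animals of both assays. The ATAC-seq lists thus described neurons and the ChIP-seq lists the whole tissue. RNA had been sequenced from cultures of embryonic day 16 forebrain neurons (3 libraries per genotype), another age and another preparation. The peak data were 1 list per assay and genotype with replicates already merged, so no peak value below has a replicate error, and intervals on shares cover counting error within 1 list, not the spread between animals.

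The BAF complex uses the energy of ATP to slide or evict nucleosomes and so changes which stretches of DNA are accessible to transcription factors. Neurons carry a form of the complex with its own subunits, among them ACTL6B, and its recruitment to regulatory DNA accompanies dendrite growth and responses to activity. A proximal promoter is the DNA around a transcript start where RNA polymerase assembles. Most promoters of broadly used genes lie in CpG islands, stretches rich in the dinucleotide CG.

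The peaks were named after 5230 distinct transcripts of 4196 genes. Protein-coding transcripts took 4946 of the peaks (87.6%), long intergenic RNAs 208 and miRNAs 38, and 446 carried the annotation's mixed type misc. A single promoter peak was listed for 3120 genes (74.4%), 2 for 826 and 3 or more for 250 (5.96%). Zmynd8, which encodes a chromatin reader, had 12 peaks at starts of 9 of its transcripts over 27208 bp, and Tcf4, a basic helix-loop-helix factor of neuronal development, had 11 at starts of 10 transcripts over 248395 bp. Another member lay within 500 bp of 2205 of the peaks (39.1%), so neighbouring peaks of a gene were not independent regions.

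To show what these regions look like, 5 peaks that the results turn on are printed from mm10 (GRCm38), written 5′ to 3′ on the strand of the gene. Capitals mark matches to any of 12 short motifs searched on both strands. Junos (chr4:95052813-95052939), Klhl2 (chr8:64841863-64842155) and Ankrd40 (chr11:94327726-94327934) had a peak in the SMARCA2/4 lists of all 3 genotypes. Rcan1 (chr16:92400118-92400190) and Son (chr16:91647197-91647416) lie in the segment that Ts65Dn mice carry in excess.
Junos: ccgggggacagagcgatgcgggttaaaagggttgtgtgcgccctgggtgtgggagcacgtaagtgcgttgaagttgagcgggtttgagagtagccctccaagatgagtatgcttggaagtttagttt
Klhl2: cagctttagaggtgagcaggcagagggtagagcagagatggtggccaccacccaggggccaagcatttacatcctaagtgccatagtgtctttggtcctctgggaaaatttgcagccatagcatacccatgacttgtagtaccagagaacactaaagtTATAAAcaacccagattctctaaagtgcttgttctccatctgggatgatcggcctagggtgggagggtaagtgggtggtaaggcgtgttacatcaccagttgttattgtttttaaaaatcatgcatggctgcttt
Ankrd40: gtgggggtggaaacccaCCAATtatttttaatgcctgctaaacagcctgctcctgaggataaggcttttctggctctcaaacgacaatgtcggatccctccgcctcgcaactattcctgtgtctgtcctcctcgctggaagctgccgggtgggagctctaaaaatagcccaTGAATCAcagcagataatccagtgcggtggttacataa
Rcan1: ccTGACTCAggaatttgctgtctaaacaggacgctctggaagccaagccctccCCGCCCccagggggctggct
Son: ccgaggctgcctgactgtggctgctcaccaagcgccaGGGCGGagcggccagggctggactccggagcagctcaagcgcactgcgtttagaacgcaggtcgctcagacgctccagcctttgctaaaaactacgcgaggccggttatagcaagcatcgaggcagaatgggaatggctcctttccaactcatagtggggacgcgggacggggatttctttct
The capitals in Ankrd40 are a CCAAT box followed by an AP-1 match (TGANTCA). In Rcan1 they are an AP-1 match and a GC box (GGGCGG) on the other strand, in Son a GC box, and in Klhl2 a TATA match (TATAAA). The Junos peak held none of the 12. CG dinucleotides numbered 17 in Son and 7 in Junos, against 2 in Klhl2 and 2 in Rcan1. A match is only a run of letters here and does not show that a factor was bound.

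The promoter peaks were spread around the start and lay more often on its transcribed side. The centre was downstream of the start in 3144 peaks (55.7%) and upstream in 2483 (44.0%). The 8557 euploid ATAC-seq peaks with the same region label were arranged otherwise, with 38.6% downstream and 60.5% upstream. A centre within 50 bp of the start was found for 1652 SMARCA2/4 peaks (29.3%) and for 49.9% of the ATAC-seq peaks. Within 100 bp the shares were 49.5 and 75.8%. The SMARCA2/4 share was highest in the first 50 bp downstream (15.2%) and was still 8.26% between 200 and 250 bp downstream, where the ATAC-seq share was 1.50%. The 37 peaks with their centre 249 to 250 bp from a start had a median fold enrichment of 3.89 and a median width of 111 bp. The 42 peaks just outside the limit, at 251 to 252 bp, had 3.57 and 94 bp. A euploid ATAC-seq peak overlapped 21.6% of those just inside and 42.9% of those just outside.

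**Figure D1:**
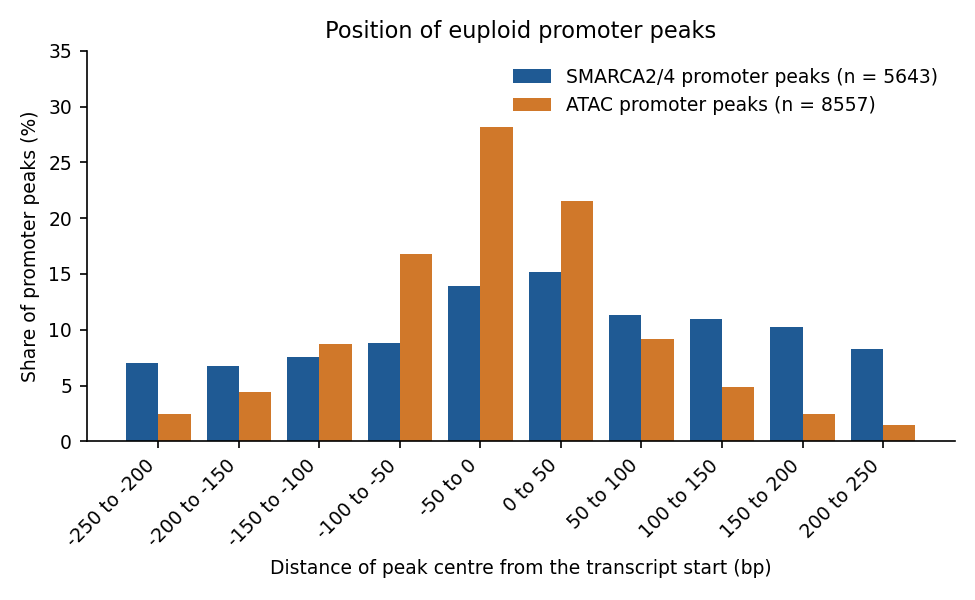
Share of promoter peaks (%, vertical axis) by distance of the peak centre from the transcript start in bins of 50 bp (horizontal axis, bp), for the 5643 euploid SMARCA2/4 peaks and the 8557 euploid ATAC-seq peaks. The ATAC-seq peaks gather within 50 bp of the start, whereas the SMARCA2/4 peaks reach further into the transcribed side.

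Fold enrichment, the authors' ratio of ChIP-seq signal to local background, ran from 1.60 to 7.03 among the promoter peaks, with quartiles of 3.44, 3.77 and 4.27. Width ran from 56 to 822 bp with quartiles of 72, 98 and 141.5 bp, and 406 peaks (7.19%) stood at the minimum of 56 bp. The other peaks of the list had a median fold enrichment of 3.73 and a median width of 92 bp. When every promoter peak was set against every other peak, the promoter peak had the higher fold enrichment in 53.4% of pairs, tied in 1.09% and had the lower in 45.5%. It was the wider in 52.4% of pairs and the narrower in 46.4%. Promoter peaks were therefore close to the rest in both measures, and with the single strongest peak of each gene the order of the median fold enrichment turned, with promoters at 3.89 and the other regions at 4.00. The very strongest peaks lay elsewhere in the list, where fold enrichment reached 20.4 and width 2628 bp.

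Among protein-coding genes, the strongest promoter peaks belonged to genes of varied function. Pbld2 had the highest fold enrichment, 7.03 over 412 bp at chr10:63024080-63024491, centred 30 bp upstream of the start. Rin1, which encodes a RAS effector that acts in neuronal plasticity, followed with 7.02, but over only 81 bp (chr19:5050573-5050653) and centred 132 bp downstream. Itm2b, a transmembrane protein expressed in brain, had 6.59 over 195 bp, and Pip4k2b, a phosphoinositide kinase, 6.53 over 346 bp. Faim2, an inhibitor of FAS-driven cell death expressed in neurons, had 6.43 over 405 bp, and Mob1b, a Hippo pathway adaptor, 6.38 over 88 bp. Gramd1b, a carrier of cholesterol between membranes, had 6.36, Cct7, a subunit of the chaperonin that folds actin and tubulin, 6.35, and Insr, the insulin receptor, 6.28. Of these 9, the peaks of Pbld2, Itm2b, Faim2, Mob1b, Gramd1b, Cct7 and Insr overlapped a euploid ATAC-seq peak, and those of Rin1 and Pip4k2b did not. High fold enrichment thus went with widths from 81 to 524 bp.

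The widest promoter peaks were at other genes. Tnrc18 had 822 bp, Setd1a, a histone H3 lysine 4 methyltransferase, 816 bp, Itga2b, an integrin of platelets, 711 bp, and Clcn2, a chloride channel, and Klf13, a zinc-finger factor, 700 bp each. Their fold enrichment was 4.79, 5.87, 4.32, 5.28 and 4.97 in that order.

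Promoter peaks as a set met open chromatin more often than the other SMARCA2/4 peaks did. Of the 5643, 2874 overlapped a euploid ATAC-seq peak by at least 1 bp (50.9%, Wilson 95% interval 49.6 to 52.2), where the share over all peaks of the list was 26.5%. The share was 23.2% for peaks within 1 kb of a start but outside the proximal window, 11.2% for those within 3 kb, 14.6% in gene bodies and 24.1% between genes. The difference to all other peaks was 32.5 percentage points (Newcombe 95% interval 31.1 to 33.9). Overlap was most frequent for peaks centred in the 50 bp before the start (59.6%) and least for those 200 to 250 bp after it (36.9%). The overlapping peaks were wider, with a median of 103 bp against 92 bp, and both sets had a median fold enrichment of 3.77. Read the other way, 2360 of the 8557 promoter ATAC-seq peaks (27.6%) overlapped a promoter SMARCA2/4 peak.

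The trisomic ATAC-seq lists, which were longer than the euploid list (29195 and 30244 peaks against 15521), covered more of the promoter peaks. The Ts65Dn list overlapped 3999 (70.9%) and the Ts65Dn;Brwd1+/- list 3888 (68.9%). All 3 lists covered 2775 (49.2%), and 1401 (24.8%) were covered by a trisomic list but not by the euploid one. List length was not separated from genotype in these shares.

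**Figure D2:**
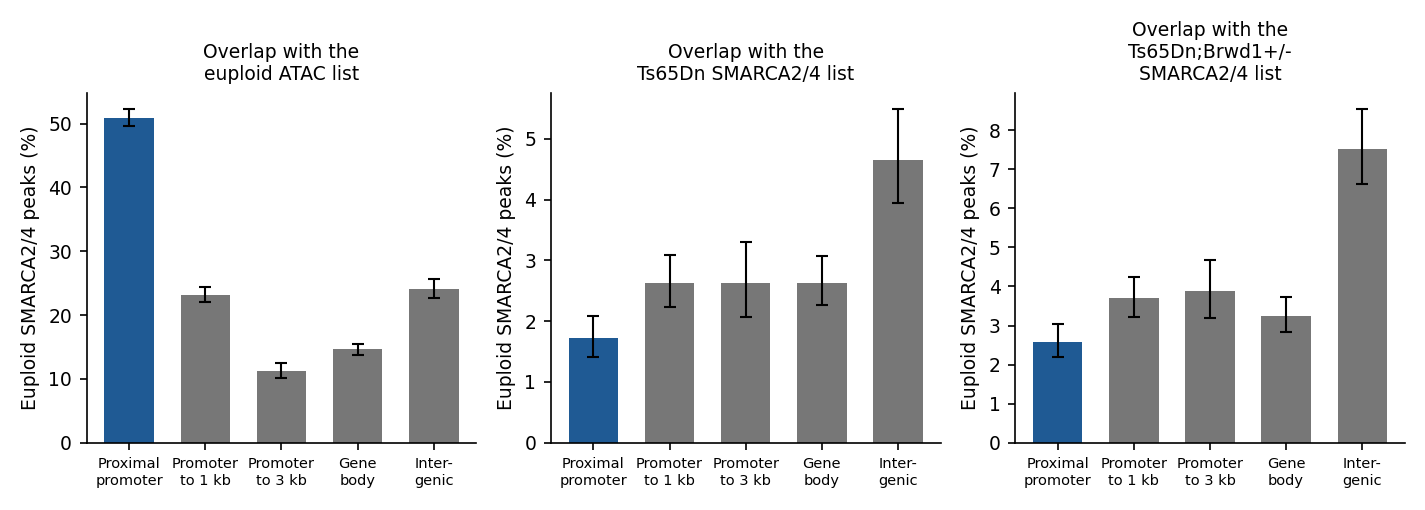
Share of euploid SMARCA2/4 peaks (%, vertical axes) that overlapped a peak of another list, by region label (horizontal axes), with Wilson 95% intervals as bars. Proximal promoter peaks have the highest overlap with euploid ATAC-seq peaks (50.9%) and shares of 1.72 and 2.59% in the Ts65Dn and Ts65Dn;Brwd1+/- SMARCA2/4 lists.

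Few promoter peaks were listed in either trisomic genotype. The Ts65Dn SMARCA2/4 list held 1290 peaks, 195 of them at proximal promoters, and overlapped 97 of the 5643 euploid promoter peaks (1.72%; 2.67% of all euploid peaks did). The Ts65Dn;Brwd1+/- list held 1873 peaks, 305 at proximal promoters, and overlapped 146 (2.59%; 3.82% of all euploid peaks). In both cases promoters were below the other regions, with differences of -1.27 percentage points (interval -1.67 to -0.818) and -1.64 points (-2.13 to -1.10). Peaks between genes had 4.65 and 7.51%. A presence in Ts65Dn alone was found for 73 promoter peaks, in Ts65Dn;Brwd1+/- alone for 122, in both for 24, and in neither for 5424 (96.1%). The lists differed in more than length. A q-value under 0.05 was carried by 89.5% of the euploid promoter peaks, by 23.1% of those in the Ts65Dn list and by 51.5% of those in the Ts65Dn;Brwd1+/- list, so the absence of a region from a list and weaker calling of that list cannot be told apart.

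Read in reverse, the overlap was larger. Of the 195 Ts65Dn promoter peaks, 88 (45.1%) overlapped a euploid promoter peak, and of the 305 in Ts65Dn;Brwd1+/- 130 (42.6%). Over all peaks of these lists, 48.1 and 45.9% overlapped any euploid peak, near the 49.2 and 48.2% of their promoter peaks that did.

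Peaks found again were the wider ones in euploid tissue. Their median euploid width was 127 bp for those in the Ts65Dn list and 169.5 bp for those in the Ts65Dn;Brwd1+/- list. By 4 bins of width (56 to 72, 73 to 98, 99 to 141 and 142 to 822 bp), presence in the Ts65Dn list was 0.418, 1.41, 1.89 and 3.19%, and in the Ts65Dn;Brwd1+/- list 1.11, 1.34, 2.03 and 5.88%. A wider peak has more bases to overlap with. With the peak centre, a single base, required to lie inside a peak of the other list, the Ts65Dn shares were 0.418, 0.916, 0.872 and 0.780%, no longer in order of width, and the Ts65Dn;Brwd1+/- shares were 0.557, 0.775, 1.02 and 2.27%. By 4 bins of fold enrichment, the shares were 1.62, 0.964, 1.63 and 2.82% in Ts65Dn and 2.50, 1.51, 1.90 and 4.76% in Ts65Dn;Brwd1+/-, highest in the top bin and not rising steadily. The matching peaks there were narrow, with medians of 70 and 78 bp, and 82 of 97 and 116 of 146 were narrower than the euploid peak. Fold enrichment was higher there than in euploid tissue for 37 of 97 and 67 of 146. The counts from the centre rule were 42 (0.744%) and 65 (1.15%) in all.

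**Figure D3:**
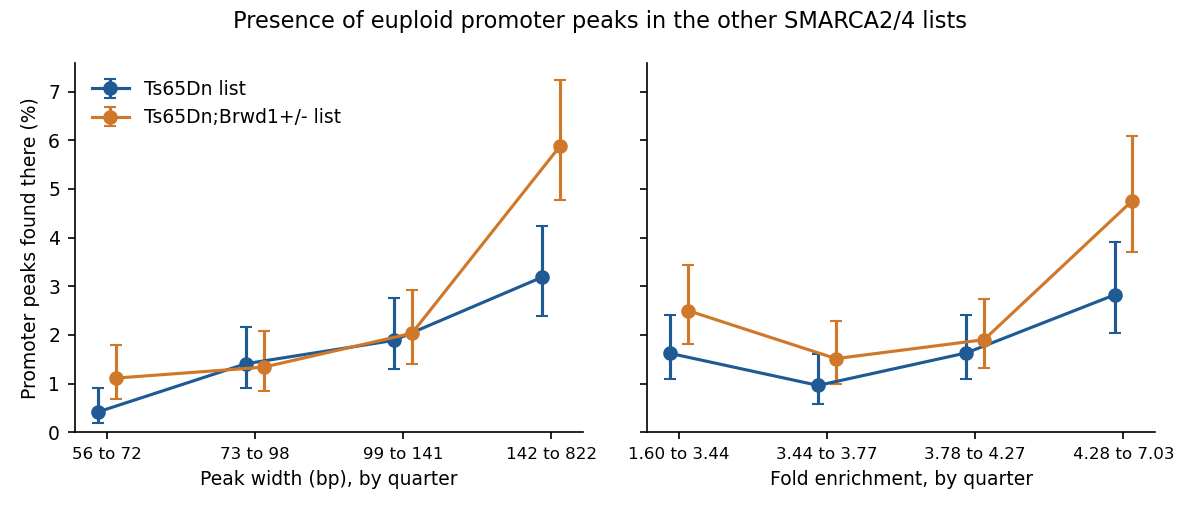
Share of the 5643 euploid promoter peaks (%, vertical axis) found in the Ts65Dn and Ts65Dn;Brwd1+/- SMARCA2/4 lists, by 4 bins of euploid width in bp and of euploid fold enrichment (horizontal axes, bounds at the quartiles), with Wilson 95% intervals. The widest bin has 3.19 and 5.88%, the narrowest 0.418 and 1.11%.

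The 24 promoter peaks found in all 3 lists comprised 16 at protein-coding transcripts, and 15 overlapped a euploid ATAC-seq peak. The matching peaks had a q-value under 0.05 in both trisomic lists for 8 of the 24, and among the 97 and 146 matches in the single lists 24 and 87 did. Camk2b, a subunit of the calcium/calmodulin kinase of synapses, had a peak of 466 bp at chr11:6000310-6000775 with a fold enrichment of 5.12 in euploid tissue, 4.17 in Ts65Dn and 5.00 in Ts65Dn;Brwd1+/-, where its widths were 98 and 143 bp. Ctsa, a lysosomal carboxypeptidase, had 4.97, 3.61 and 3.60 with q-values of 0.275 and 0.277 in the trisomic lists, and Klhl2, an adaptor of a ubiquitin ligase, had 4.68, 4.53 and 4.50. Ybx1, a cold-shock protein that binds mRNA, went the other way, with 4.77 in euploid tissue, 11.7 in Ts65Dn and 8.40 in Ts65Dn;Brwd1+/- (chr4:119294348-119294442, 85 bp downstream of the start). Pfn1, the actin-binding profilin, likewise had 4.31, 9.14 and 7.33 (chr11:70654377-70654607). Spaca6 had 5.92, 3.99 and 4.56, with a q-value of 0.0903 in Ts65Dn. Junos, a transcript antisense to the Jun locus, had 4.78, 3.70 and 3.90, with q-values of 0.293 and 0.0786. Fold enrichments are relative to each list's own background and were not tested between genotypes. At 5 of the 24 (2 at Gm21738 and 1 each at Sfi1, Gm10800 and Gm10801) the euploid fold enrichment was under 2.2, and soft-masked repeats filled more than 50% of the 300-bp window of 16.7% of the 24, against 0.638% of all promoter peaks. Without any such repeat-rich window the shares in the Ts65Dn and Ts65Dn;Brwd1+/- lists were 1.66 and 2.44%.

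The segment in 3 copies in both trisomic genotypes (chromosome 16 from 84717576 to 98082450 and chromosome 17 from 3042024 to 8986648) held 53 of the promoter peaks (0.939%). The Ts65Dn list overlapped 0 of the 53, which allows a share of up to 5.66%, against 1.74% of the 5590 promoter peaks outside. The Ts65Dn;Brwd1+/- list overlapped 8 (15.1%, interval 7.85 to 27.1), against 2.47% outside, a difference of 12.6 points (5.37 to 24.6). The segment's share of all peaks was 1.10% in the euploid, 2.02% in the Ts65Dn and 2.72% in the Ts65Dn;Brwd1+/- list, and copy number and binding cannot be told apart in these shares. The 8 peaks were at Pigp, Rcan1, Adamts1, T2 (2 peaks), Son, B3galt5 and Rsph3a. Pigp, an enzyme of GPI anchor synthesis, had a fold enrichment of 5.93 in euploid tissue and 4.12 in Ts65Dn;Brwd1+/-. Rcan1, an inhibitor of calcineurin, had 4.67 and 3.56, Adamts1, a secreted protease, 4.47 and 3.43, and Son, a splicing cofactor, 4.01 and 3.66. Rsph3a, a component of the ciliary radial spoke, had 3.77 and 4.50. The q-values there were 0.00943 for Pigp, 0.0838 for Rcan1, 0.0678 for Adamts1, 0.0895 for Son, 0.0493 for B3galt5, 0.00466 for Rsph3a and 0.00799 and 0.50 for the 2 T2 peaks. With only peaks of q under 0.05 in that list, a rule chosen after seeing the data, 4 of the 53 were found (7.55%, interval 2.97 to 17.9), against 1.48% outside, a difference of 6.06 points (1.48 to 16.4). The highest fold enrichment in the segment was 6.28 at Fndc1, and Ets2, an ETS-family factor, had a peak of 646 bp with 5.32. Open chromatin was also listed more often over segment promoter peaks in Ts65Dn neurons, at 46 of 53 (86.8%) against 70.7% outside, a difference of 16.1 points (4.38 to 22.8), while the euploid list covered 29 (54.7%) against 50.9%. The Ts65Dn;Brwd1+/- ATAC-seq list covered 43 (81.1%) against 68.8%, a difference of 12.3 points with an interval that includes 0 (-0.20 to 20.7). The Brwd1 promoter had a euploid ATAC-seq peak and no SMARCA2/4 promoter peak.

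Among annotated protein-coding genes, 3619 of 21938 (16.5%) had a euploid SMARCA2/4 promoter peak and 7572 (34.5%) a euploid ATAC-seq promoter peak. Both were present at 2569, which was 71.0% of the SMARCA2/4 genes and 33.9% of the ATAC-seq genes. A gene counted as having both when the peaks lay at any of its starts. The shares below are read against 16.5% and are a description of the lists. The 16.5% includes genes at 0 RNA in the euploid cultures, and the share rose with RNA level, to 34.3% in the highest of 5 bins. The lists were not matched for expression, so a share above 16.5% is not set against genes of like RNA level.

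Of the neuronal lists, those of synaptic vesicle, receptor, channel, excitatory identity and activity-regulated genes stood above that share, while those of interneuron identity (1 of 14, 7.14%) and protocadherins (2 of 57, 3.51%) did not. Of 24 synaptic vesicle genes 11 had a promoter peak (45.8%, interval 27.9 to 64.9), led by Syt1, the calcium sensor of transmitter release (fold enrichment 5.78), Slc17a7, the vesicular glutamate transporter of cortical and hippocampal neurons (5.15), and Dnm1, the dynamin of vesicle recycling (4.94). In 7 of the 11 no ATAC-seq promoter peak was listed, namely Cplx1, Cplx2, Dnm1, Slc17a6, Slc17a7, Unc13a and Vamp2. Of 34 glutamate and GABA receptor genes 14 had one (41.2%, 26.4 to 57.8), with the NMDA receptor subunit gene Grin2a at 5.28 and Gabbr1, a GABA-B receptor subunit, at 5.02. The Gabbr1 peak was also in the Ts65Dn;Brwd1+/- list. Of 27 voltage-gated channel genes 9 had one (33.3%, 18.6 to 52.2), and in 8 of these, among them Cacna1d, Cacna1e, Kcna2, Kcnc1, Kcnq3 and Scn8a, no ATAC-seq promoter peak was listed. Only Kcna4 had both, and the Kcnc1 peak was also in the Ts65Dn list. Of 16 genes of excitatory neuron identity 7 had one (43.8%, 23.1 to 66.8), among them Bhlhe22, Camk2a (4.38), Nrgn, Prox1, Tbr1 and the zinc-finger factor gene Zbtb20 (4.43). Of 22 activity-regulated genes 11 had one (50.0%, 30.7 to 69.3), among them Fosl2 (4.73) and Junb (3.84), both AP-1 subunits, and Homer1 (4.27), a postsynaptic scaffold.

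Genes of the remodeller itself were among those marked. Of 28 BAF subunit genes 12 had a promoter peak (42.9%, 26.5 to 60.9). In Actl6a, Actl6b, Arid1a, Dpf1, Dpf2, Smarca2, Smarca4, Smarcd1, Smarcd2 and Smarcd3 an ATAC-seq promoter peak was present too, and in Arid1b and Bcl11a it was not. Fold enrichment was 4.52 at Bcl11a and at Arid1a and 4.47 at Smarca2. Of 38 other chromatin regulators 10 had one (26.3%, 15.0 to 42.0, which includes the share of all genes), with Setd1a at 5.87, the DNA methyltransferase gene Dnmt3a at 5.47 and the bromodomain gene Brd2 at 4.74. Chd4, the remodelling ATPase of the NuRD complex, had a peak of 4.10 that was also in the Ts65Dn list.

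The lists for interneurons and for cells other than neurons had between 0 and 3 genes with a promoter peak each, out of 12 to 14. Of 12 astrocyte markers 3 had one (25%, interval 8.89 to 53.2), namely Glul (3.99), Slc1a2 (3.50) and Slc1a3 (3.24). Of 12 oligodendrocyte markers 2 did (16.7%, 4.70 to 44.8), Cnp (4.02) and Mbp (3.21). Only Cck did of 14 interneuron markers (interval 1.27 to 31.5%), and none of 12 microglial and 12 endothelial markers (0 to 24.2% each). All these intervals include the 16.5% of all protein-coding genes, so such short lists cannot be set above or below it. ATAC-seq promoter peaks were listed for none of the astrocyte, oligodendrocyte, interneuron or endothelial markers, and for 2 microglial genes, among them Aif1.

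Constitutively used genes differed between the assays. Cytosolic ribosomal protein genes had an ATAC-seq promoter peak in 69 of 80 cases (86.3%) and a SMARCA2/4 promoter peak in 20 (25%), all of which also had the ATAC-seq peak. Rpl10a (5.11), Rpl21 (4.90) and Rps24 (4.77) were the highest. Mitochondrial ribosomal genes had 14 of 75 (18.7%) against 47, oxidative phosphorylation genes 14 of 84 (16.7%) against 56, and proteasome genes 6 of 39 (15.4%) against 28. Genes of DNA replication and mitosis had an ATAC-seq promoter peak in 14 of 22 and a SMARCA2/4 promoter peak only at the cyclin gene Ccnb1, where fold enrichment was 2.64 and the q-value 0.119. Of 18 cholesterol synthesis genes 5 had a SMARCA2/4 peak and 12 an ATAC-seq peak, among the SMARCA2/4 genes Fdft1 (4.27) and Dhcr7 (3.97), enzymes of the pathway. None of 39 Hox genes and none of 1093 olfactory receptor genes had either, and of 57 protocadherins Pcdhac2 and Pcdhgc5 had a SMARCA2/4 promoter peak. Cytosolic ribosomal genes thus had the highest ATAC-seq share of the lists named, and activity-regulated, synaptic vesicle and excitatory neuron genes the highest SMARCA2/4 shares.

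**Figure D4:**
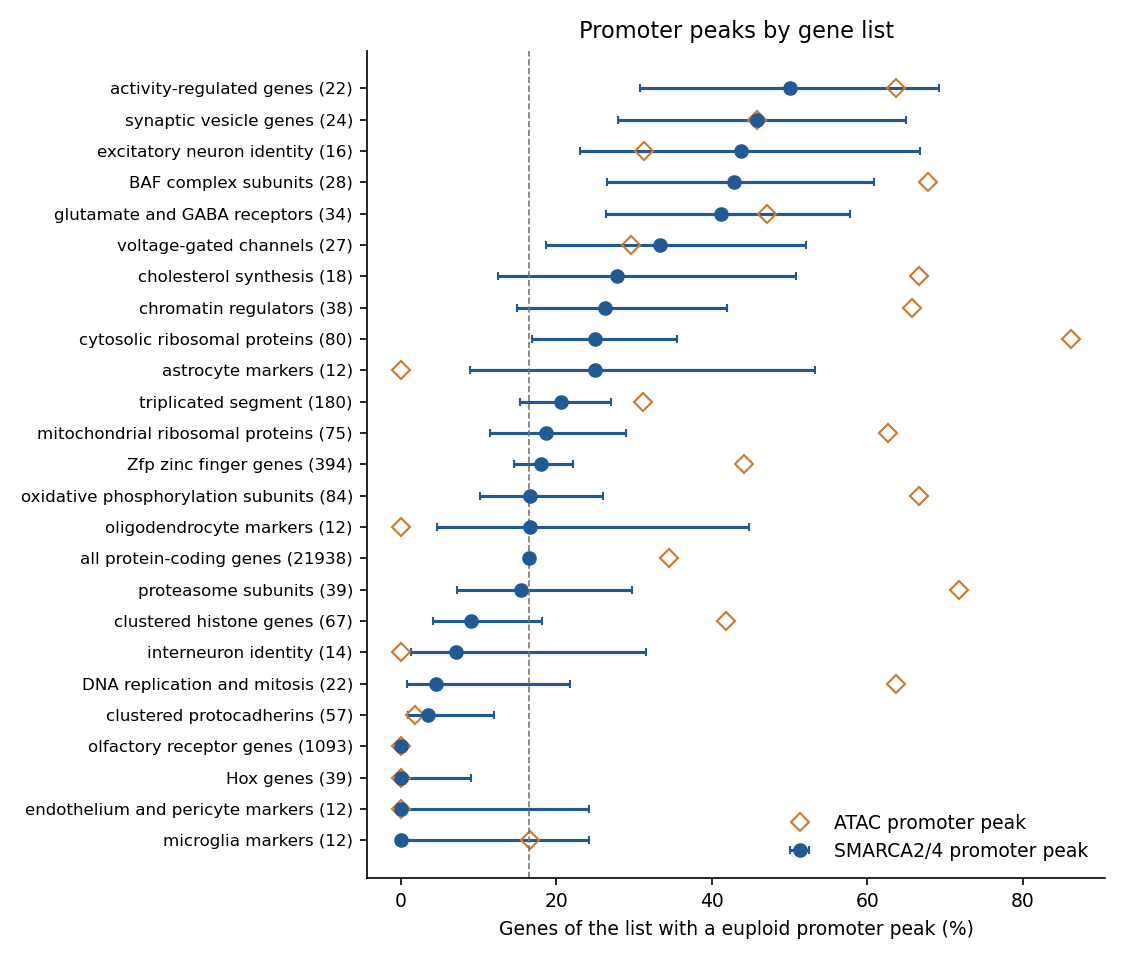
Share of the genes of each list (%, horizontal axis) with a euploid SMARCA2/4 promoter peak and with a euploid ATAC-seq promoter peak, with Wilson 95% intervals on the SMARCA2/4 share, the number of annotated genes in parentheses and the share over all protein-coding genes (16.5%) as a dashed line. Synaptic, receptor and BAF lists lie above the line, and replication genes below it although 14 of 22 have an ATAC-seq peak.

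The promoter peaks were rich in G and C, less so than open promoters as a whole. In windows of 300 bp around the peak centre the median GC content was 63.0% and 66.4% of windows passed a CpG island rule (GC of at least 50% and an observed to expected CpG ratio of at least 0.6). Promoter ATAC-seq peaks had 66.3% GC and 87.2% of windows past the rule, SMARCA2/4 peaks within 1 kb of a start 57.0 and 42.2%, and those in gene bodies 49.7 and 3.46%. Within the promoter peaks, those overlapping a euploid ATAC-seq peak had 65.3% GC and 79.5% past the rule, and those without had 60.3 and 52.8%. Peaks found again in the Ts65Dn and Ts65Dn;Brwd1+/- lists had 52.6 and 50.0% past the rule.

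The same windows were searched for 12 motifs on both strands. The GC box of SP and KLF factors (GGGCGG) was present in 52.4% of the SMARCA2/4 promoter windows, 74.0% of the ATAC-seq promoter windows and 9.79% of the SMARCA2/4 gene body windows. The CCAAT box of NF-Y was in 24.9, 37.7 and 30.6% of them, the ETS match (CCGGAAG) in 8.91, 20.1 and 1.98%, NRF1 (GCATGCGC) in 1.86, 6.26 and 0.797%, and YY1 (AANATGGCG) in 2.41, 6.82 and 0.325%. The CREB and ATF match (TGACGTCA) was in 1.75, 3.95 and 0.602%, the E-box CACGTG in 7.39, 10.6 and 5.77%, EGR (GCGTGGGCG) in 1.35, 1.59 and 0.195%, RFX (GTTGCCATG) in 0.904, 1.11 and 1.22%, and ZNF143 (ACTACAATT) in 0.177, 0.596 and 0.130%. The AP-1 match (TGANTCA), seen in Rcan1 and Ankrd40 above, was in 6.43% of SMARCA2/4 promoter windows, more than the 3.24% of ATAC-seq promoter windows and less than the 18.5% of gene body windows. TATAAA was in 4.64, 2.72 and 11.3%. Median GC content differed between these sets (63.0, 66.3 and 49.7%), and the motif shares were not adjusted for it. The CCAAT box seen in Ankrd40 was thus in a larger share of gene body windows than of SMARCA2/4 promoter windows.

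In the RefSeq promoters of the same build (250 bases before to 50 after the start), 2908 genes with a SMARCA2/4 promoter peak were matched by symbol among 16522. The GC box was in 67.8% of them, in 69.5% of those with an ATAC-seq peak only and in 33.1% of those with neither. The ETS match was in 14.6, 21.8 and 7.61%, and the CCAAT box in 37.5, 43.3 and 37.2%.

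Genes with a SMARCA2/4 promoter peak were expressed in euploid cultures. Among genes at 0 in all 3 euploid libraries, 0.515% had a promoter peak, and over 5 bins of equal size by RNA per kb of transcript the share among the other genes was 2.05, 12.5, 24.2, 30.7 and 34.3%. The ATAC-seq shares were 0.448, 3.23, 27.1, 57.8, 63.8 and 65.8%. Median RNA was 9.31 CPM per kb with both kinds of peak, 7.42 with SMARCA2/4 only, 7.37 with ATAC-seq only and 0.0491 with neither. Age, tissue and preparation differ between these assays.

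**Figure D5:**
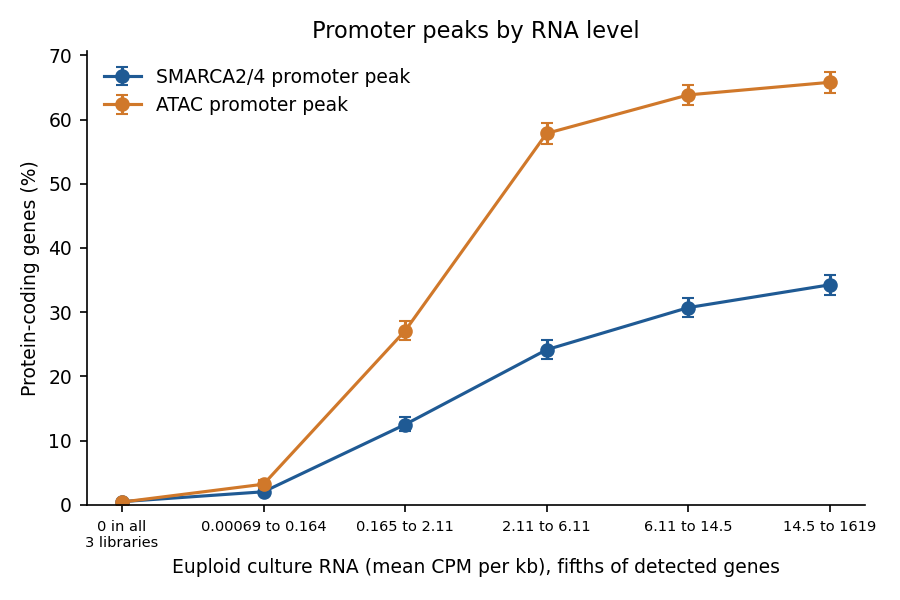
Share of protein-coding genes (%, vertical axis) with a SMARCA2/4 or an ATAC-seq promoter peak in euploid hippocampus, by euploid culture RNA (horizontal axis, mean CPM per kb, genes at 0 and then 5 bins of equal size), with Wilson 95% intervals. Both shares rise with RNA level, to 34.3 and 65.8% in the highest bin.

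The RNA libraries need 3 statements before their contrasts. First, the libraries labelled Ts65Dn;Brwd1+/- held Xist at 1946, 2061 and 1457 CPM against 0.517 to 1.11 in the other 6, and the sum of 4 Y-linked genes was at most 0.154 CPM against at least 190.4, although all cultures are labelled as pooled male and female. Sex and genotype therefore cannot be told apart in these libraries. Second, Brwd1 was at 93.2, 85.9 and 89.2 CPM in euploid, 129, 126 and 125 in Ts65Dn and 145, 146 and 124 in the libraries labelled Ts65Dn;Brwd1+/-. It was higher in Ts65Dn than in euploid (log2 fold change 0.50, adjusted p = 0.000787, quasi-likelihood test of edgeR, adjusted after Benjamini and Hochberg) and from Ts65Dn to the libraries labelled Ts65Dn;Brwd1+/- its log2 fold change was 0.13 (edgeR adjusted p = 0.186). Whether transcripts of the mutant allele were counted was not tested. Finally, 1 Ts65Dn library, replicate 3, was lower in neuronal genes than the other 2 (Camk2b 83.0 CPM against 276 and 249), and the counts for genes with a promoter peak are given with and without it. The summed excitatory neuron markers were 2030 to 2360 CPM in euploid, 1013 to 1424 in Ts65Dn and 1959 to 2379 in Ts65Dn;Brwd1+/-. The summed endothelial and pericyte markers, of which 1 of 12 was at 0, were 210 to 236, 859 to 1118 and 180.2 to 254, and those of DNA replication 467 to 525, 658 to 789 and 1117 to 1153. A sum weighs its most abundant members most. Of the endothelial and pericyte markers 7 were tested in Ts65Dn against euploid, where 4 rose and 0 fell (median log2 fold change 0.54). Summed interneuron markers were 678 to 757, 160 to 301 and 1087 to 1184, and oligodendrocyte markers 362 to 408, 607 to 707 and 990 to 1153. In bulk RNA, fewer cells of a type and less RNA per cell cannot be told apart, and the part of cell composition in the results below was not tested.

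Genes with a promoter peak were lower in Ts65Dn cultures more often than other genes. Of 3829 tested, 1106 fell (28.9%) and 895 rose (23.4%), where over all 17173 genes 21.1% fell and 25.6% rose (edgeR, adjusted p under 0.05). The share that fell was 18.9% among genes without such a peak, a difference of 9.99 points (8.43 to 11.6, counting error over genes, which are not replicates). It was 22.8% among genes with an ATAC-seq promoter peak only and 31.1% among genes whose SMARCA2/4 promoter peaks overlapped no euploid ATAC-seq peak. Calls in either direction were also more frequent with a promoter peak (52.3%) than without one (45.1%), and the sets were not matched for RNA level. Without Ts65Dn replicate 3 the shares that fell were 24.6% with and 15.3% without a promoter peak, 18.3% with an ATAC-seq promoter peak only and 27.5% with SMARCA2/4 promoter peaks that overlapped no euploid ATAC-seq peak. The median log2 fold change was small, -0.02 with a promoter peak and 0.04 over all genes tested. Set against Ts65Dn, the libraries labelled Ts65Dn;Brwd1+/- had another balance. There 1320 promoter-peak genes rose (34.5%) and 1100 fell (28.7%), where 27.6% of all genes rose and 30.5% fell. Genes with an ATAC-seq promoter peak only had a like tilt, with 31.9% that rose and 24.2% that fell (27.7 and 21.7% without Ts65Dn replicate 3). Without Ts65Dn replicate 3 the shares were 30.8 and 25.8% with a promoter peak and 24.3 and 27.3% over all genes. Both contrasts use the Ts65Dn libraries, so opposite directions in them are not independent. Genes whose promoter peak was found again in the Ts65Dn list (79 tested) had 20 that rose and 25 that fell in Ts65Dn, and those found again in the Ts65Dn;Brwd1+/- list (119 tested) had 30 and 33. Without that library the counts were 19 and 20, and 28 and 30.

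Most synaptic vesicle, receptor, channel and excitatory identity genes were lower in Ts65Dn, with and without a promoter peak. Over all genes tested 25.6% rose and 21.1% fell (20.9 and 17.3% without Ts65Dn replicate 3), and the counts below are read beside these shares. Of the synaptic vesicle genes 10 of 11 with a peak fell (median log2 fold change -1.15) and 11 of 11 tested without one (-1.34). Of the receptor genes 13 of 14 with a peak and 15 of 20 without one fell, and of the channel genes 8 of 9 and 15 of 18. Of the excitatory identity genes 6 of 7 and 8 of 9 fell, and Zbtb20, a hippocampal zinc-finger factor with a peak, had a called rise of 0.33 on the log2 scale that did not pass without Ts65Dn replicate 3 (0.28, edgeR adjusted p = 0.0707). Without Ts65Dn replicate 3 the counts that fell were 10, 13, 8 and 6 with a peak and 10 of 12, 14 of 20, 15 of 18 and 9 of 9 without one, and the median for the synaptic vesicle genes with a peak was -0.85. Of the interneuron genes 12 of 13 tested without a peak fell, and Cck, the only one with a peak, did not pass with all libraries and fell without Ts65Dn replicate 3 (log2 fold change -0.68). Of the astrocyte markers the 3 with a peak fell (median log2 fold change -0.62), whereas of those without one 5 rose and 0 fell (0.57), and without Ts65Dn replicate 3 the counts were 3 that fell and 3 that rose. These differences between genes with and without a peak were not tested. BAF subunit genes with a peak were mixed, 4 higher and 4 lower of 12, and of the activity-regulated genes with a peak 4 rose and 3 fell, while 7 of 10 tested without one rose and none fell. Without Ts65Dn replicate 3 the BAF genes with a peak had 3 higher and 3 lower, the activity-regulated genes with a peak 3 and 3, and those without one 6 higher of 10.

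Among the genes with the strongest promoter peaks, 6 of the 9 named above passed the test in Ts65Dn against euploid, where 46.7% of all genes tested and 52.3% of those with a promoter peak did. Rin1 was at 6.46, 8.07 and 7.88 CPM in euploid, 18.1, 21.0 and 21.2 in Ts65Dn and 7.89, 8.80 and 10.3 in Ts65Dn;Brwd1+/-. The Ts65Dn libraries were all above the others, with a log2 fold change of 1.43 (SE 0.129, edgeR adjusted p = 3.26e-05) and the Ts65Dn;Brwd1+/- libraries were below Ts65Dn by a log2 fold change of -1.15 (SE 0.127, edgeR adjusted p = 3.93e-05). Faim2 was at 112, 115 and 89.3 CPM in euploid, 48.4, 35.5 and 13.4 in Ts65Dn and 118, 80.9 and 90.9 in Ts65Dn;Brwd1+/-. It fell in Ts65Dn by 1.70 on the log2 scale (SE 0.357, edgeR adjusted p = 0.00375), and by 1.33 without replicate 3. Itm2b was at 761, 669 and 679 CPM in euploid, 1179, 1197 and 1302 in Ts65Dn and 602, 619 and 608 in Ts65Dn;Brwd1+/-, without overlap between Ts65Dn and the rest. Pip4k2b and Gramd1b also fell (log2 fold changes of -0.62 and -1.02, and -0.47 and -0.84 without Ts65Dn replicate 3), and Pbld2 rose by 0.97 from about 1 CPM, a call lost without euploid replicate 1 or replicate 3. Mob1b, Cct7 and Insr had log2 fold changes of 0.27, -0.06 and -0.09 and did not pass, but Mob1b did without euploid replicate 1 (0.40) and with the replicate number as a block (0.27).

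Genes with a peak in all 3 SMARCA2/4 lists moved in both directions. Camk2b was at 487, 543 and 440 CPM in euploid, 276, 249 and 83.0 in Ts65Dn and 537, 440 and 452 in Ts65Dn;Brwd1+/-, a log2 fold change of -1.27 in Ts65Dn (SE 0.343, edgeR adjusted p = 0.0124) that was -0.90 without replicate 3. Ctsa was at 129, 140 and 141 CPM in euploid, 226, 244 and 246 in Ts65Dn and 140, 143 and 149 in Ts65Dn;Brwd1+/-, so that Ts65Dn stood above both other groups. Ybx1, at 276, 328 and 268 CPM in euploid and 232, 265 and 259 in Ts65Dn, did not pass in Ts65Dn (log2 fold change -0.20, edgeR adjusted p = 0.157), and was higher in Ts65Dn;Brwd1+/- (445, 358 and 384 CPM) than in Ts65Dn, by 0.65 (edgeR adjusted p = 0.000684). Pfn1 passed in neither contrast (0.19 and -0.14), although both passed without Ts65Dn replicate 1 (0.35 and -0.30). Klhl2 fell in Ts65Dn by 0.71 on the log2 scale, a call lost without euploid replicate 1 or replicate 2.

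In the extra segment 29 of 37 tested genes with a promoter peak rose in Ts65Dn (78.4%), as did 57 of 77 without one (74.0%), where 25.6% of all genes tested rose. Without Ts65Dn replicate 3 the counts were 30 and 57. Rcan1 was at 54.8, 58.4 and 59.0 CPM in euploid, 94.9, 106 and 104 in Ts65Dn and 89.5, 84.9 and 89.8 in Ts65Dn;Brwd1+/-, a log2 fold change of 0.82 in Ts65Dn (SE 0.0695, edgeR adjusted p = 2.05e-05). Son was at 621, 604 and 654 CPM in euploid, 1204, 1252 and 1338 in Ts65Dn and 1091, 1279 and 1107 in Ts65Dn;Brwd1+/-, where the trisomic groups overlapped and both were above euploid. Pigp was at 21.3, 19.8 and 21.2 CPM in euploid, 33.6, 32.1 and 36.0 in Ts65Dn and 24.3, 28.3 and 23.3 in Ts65Dn;Brwd1+/-, between the other groups. Adamts1 rose by 0.90 in Ts65Dn and was lower by a log2 fold change of -1.23 in Ts65Dn;Brwd1+/- than in Ts65Dn. Rsph3a rose by 1.10, while B3galt5 had -0.37, a call lost without euploid replicate 1 or replicate 2 or Ts65Dn replicate 2 or replicate 3. The promoter peaks of these genes were found in the Ts65Dn;Brwd1+/- list and not in the Ts65Dn list, which held 0 of the 53 segment promoter peaks. Their RNA was raised in Ts65Dn except for B3galt5, as was the RNA of most segment genes without a promoter peak. A link between peak and RNA was not tested.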

How the data were processed

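SMARCA2/4 ChIP-seq, ATAC-seq and RNA-seq libraries, 42 samples in all, were grouped by genotype and assay from their labels. The authors aligned reads to mm10 with HISAT2, kept uniquely mapped reads, removed duplicates, called peaks with MACS 2.1 against input (for ATAC-seq with a shift and extension of reads) and annotated them with the region tool of diffReps. The deposited lists hold, for each peak, its fold enrichment over the local background as a linear ratio, with p- and q-values, with 1 list per assay and genotype. How replicates were merged is not stated, the depth of these libraries is unknown, and the authors' stated filter (q under 0.05 and fold over 1.2) does not describe the ChIP-seq lists, where q-values of promoter peaks reached 0.146 in the euploid list and 1 in the other lists. The deposited RNA files hold raw read counts per gene, not normalised. featureCounts is named as the counter, whereas the files end with the summary lines of htseq-count, and use of strand is not stated. Lines without a gene took 37.45 to 40.04% of counts and were left out, and total gene counts were 17270070 to 25892802 per library. All columns of values were mapped to samples or lists.

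Peaks were called shared at an overlap of at least 1 bp, with coordinates counted from 1 and widths including both ends. Shares have Wilson and differences Newcombe 95% intervals, and the upper limit of a 0 is 3 counts of the total. The sign of the distance to the start was checked against strand. Region names other than the proximal promoter are those of the list. Sequence came from mm10 and promoters from RefSeq (GRCm38). CPM per kb used the transcript length of the annotation.

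RNA of 17173 genes left by filterByExpr was fitted over all 9 libraries with genotype as the only factor (edgeR 4.0.16 in R 4.3.3, TMM, quasi-likelihood test, Benjamini-Hochberg threshold 0.05), and the fit was tested on simulated data. The labels call the cultures pooled male and female, whereas the paper's methods describe cortices handled one embryo at a time and samples kept separate in molecular work. Which of these holds for the 3 libraries of a genotype was not settled, and p-values measure the spread between these libraries. Same-numbered euploid and Ts65Dn libraries had weakly correlated deviations from their group means (r = 0.129, 0.207 and 0.263). Those with different numbers had r from -0.208 to 0.0222. Same-numbered Ts65Dn and Ts65Dn;Brwd1+/- libraries had r of 0.279, -0.125 and 0.206. The titles give only a replicate number, so whether the numbers pair libraries was not settled. The main test did not use the numbers, and a fit with them as a block is among the alternatives. Alternatives were DESeq2 1.42.0, no filter, a replicate block, libraries left out and other overlap and q-value rules.

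Named genes were the 10 protein-coding genes of highest fold enrichment with q under 0.05, the 5 widest peaks, peaks in both other lists up to 10, the 3 highest in each gene list with all members of lists having 5 or fewer, those of them passing the RNA test, and the 5 strongest of the extra segment. Some genes that this rule names are not reported here. Other genes named as examples were chosen after their values were seen. The members and gene lists were chosen with earlier results of these data known.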

Additional observations from a re-analysis of the deposited data

How the results depend on the processing

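The share of promoter peaks overlapping euploid ATAC-seq peaks (50.9%) was 42.5% when at least 50% of the peak had to be covered, 70.5% within 500 bp, 53.7% with 1 peak a gene and 49.0% with promoters assigned from the annotation. The share in the Ts65Dn list (1.72%) was 0.532% with 50% covered, 4.66% within 500 bp and 0.443% with peaks of q under 0.05 there. The share in the Ts65Dn;Brwd1+/- list (2.59%) was 0.709, 7.11 and 1.54% under the same rules and 3.15% with promoters from the annotation. For the 53 peaks of the extra segment the share in that list (15.1%) was 7.55% with peaks of q under 0.05 there, a rule chosen after seeing the data. Under the overlap, distance and q-value rules promoters stayed below the other peaks in both lists. The median fold enrichment of promoter peaks minus that of other peaks was 0.0417, became 0.0989 with q under 0.05 and turned to -0.110 with 1 peak a gene. The cause was not tested.

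Genes with a promoter peak that passed the RNA test numbered 2001 in Ts65Dn against euploid. Leaving out each library in turn gave 1677 to 1972, DESeq2 1889, no filter 1851, and, chosen after seeing the data, a fit of the 6 euploid and Ts65Dn libraries alone 1773. In Ts65Dn;Brwd1+/- against Ts65Dn they numbered 2420, with 1991 to 2455 when each library was left out, 2315 by DESeq2 and 2304 without a filter. With autosomal genes only, also chosen after seeing the data, it was 2414. The replicate block gave 2087 and 2510 and moved no count by over 1.5 times. Of 90 results for named genes, 69 kept their side of the threshold under every setting, 21 changed side in at least 1 setting, and 0 reversed. The merged lists allowed no paired test of the peaks, and the unknown depth of the peak libraries limits every absence from a list.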

Other observations

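The X chromosome had few SMARCA2/4 promoter peaks. Of 948 protein-coding genes on it 8 had one (0.844%), against 3611 of 20807 on autosomes (17.4%), and 10 of the 5643 promoter peaks lay there. The peaks were at Wdr13 (2 peaks), Mtmr1, F8a, Naa10, Mir718, Pcyt1b, Pja1, Gemin8 and Gpm6b, the last of which encodes a membrane proteolipid of neurons and glia. ATAC-seq promoter peaks were listed for 170 of the 948 (17.9%) against 35.6% on autosomes. The whole euploid SMARCA2/4 list had 33 X-chromosome peaks of 22667. The tissue was male, with 1 X chromosome per cell, and how copy number entered the calling was not tested.

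Genes with a start of another gene on the opposite strand within 1000 bp upstream made up 22.6% of those with a SMARCA2/4 promoter peak (818 of 3619) and 16.9% of all protein-coding genes. The share was 29.5% (interval 26.8 to 32.4) among genes with a SMARCA2/4 but no ATAC-seq promoter peak, 19.8% with both, 23.2% with an ATAC-seq peak only and 12.9% with neither. Vgll4, a cofactor of TEAD factors, had 6 promoter peaks at starts of 4 transcripts over 95143 bp, and Anp32a, a histone chaperone, also had 6.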
